A study of Mus musculus with 6 samples.

Results

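The 10 genes described here, Myh6, Myh7, Nppa, Tnnt2, Tnni3, Myl7, Myl4, Actc1, Ttn and Ryr2, are genes of heart muscle cells that were read in RNA-seq libraries of mouse aorta. They were chosen by symbol, and each symbol matched 1 of the 55335 rows of the gene count table. The libraries came from wild-type C57BL/6 mice, with 3 young mice of 6 weeks and 3 aged mice of 6 months, and the age is the only difference that the labels give. The labels spell the strain c57b6l and the methods of the study describe all mice as male. Vessel of each mouse was frozen after the fat around it had been dissected away, and it is not stated whether the piece began at the heart. Each library is 1 mouse, and p values measure the spread between mice.

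Heart muscle cells contract through sarcomeres, in which myosin filaments pull on actin filaments when calcium binds to the troponin complex. Calcium is released from internal stores through the ryanodine receptor, and titin links the filaments like a spring. Atrial and ventricular muscle use partly different parts, such as the light chains Myl7 and Myl4 in atria and Myl2 and Myl3 in ventricles. Smooth muscle of the aortic wall uses other isoforms, among them Myh11 and Acta2.

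The total count per library lay between 31049632 and 45832185 reads. Young replicate 1 stood apart in a gene that is unrelated to muscle. Xist, which coats the inactive X chromosome of female mammals, was at 306 CPM there and at 0.204 to 0.636 CPM in the other 5 libraries, and the Y-linked gene Ddx3y was at 1.09 CPM against 44.8 to 65.6 CPM. CPM are counts relative to the library total, corrected by TMM factors. Both genes go against the description of that mouse as male. Whether its other labels hold, the age included, was not tested, and each young mean that includes it carries that limit. The edgeR comparisons of ages are given with and without it, except for Nppa. Smooth muscle markers were read to check that muscle of the vessel wall was present, which cannot tell aorta from other smooth muscle tissue. The 10 markers summed to 36581 to 46097 CPM in young and to 32583 to 39660 CPM in aged aorta, with Acta2, Myh11 and Tagln on top and none at 0.

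Start regions of 5 of the genes are shown, namely the 4 whose level in young replicate 1 exceeded the median of the other 5 libraries by the largest ratio (Nppa, Myl7, Actc1 and Tnni3) and, as a contrast, Ryr2, the only one that did not exceed it. Each run has 300 bases, from 250 before to 50 after the start that RefSeq gives on GRCm38.p6, and is printed from 5′ to 3′ on the strand of the gene.
Nppa, chr4:148000472-148000771, plus strand: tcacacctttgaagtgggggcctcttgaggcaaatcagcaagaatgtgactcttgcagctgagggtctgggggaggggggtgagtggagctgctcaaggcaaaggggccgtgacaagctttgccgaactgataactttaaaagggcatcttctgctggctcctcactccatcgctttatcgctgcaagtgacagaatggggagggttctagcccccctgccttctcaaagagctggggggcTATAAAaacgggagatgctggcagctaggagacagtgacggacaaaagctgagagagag
Myl7, chr11:5898733-5899032, minus strand: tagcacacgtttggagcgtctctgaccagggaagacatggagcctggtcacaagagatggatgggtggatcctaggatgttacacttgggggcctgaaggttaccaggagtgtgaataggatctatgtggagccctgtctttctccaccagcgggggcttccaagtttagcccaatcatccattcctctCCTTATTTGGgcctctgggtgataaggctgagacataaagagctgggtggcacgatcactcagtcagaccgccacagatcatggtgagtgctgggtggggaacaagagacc
Actc1, chr2:114052826-114053125, minus strand: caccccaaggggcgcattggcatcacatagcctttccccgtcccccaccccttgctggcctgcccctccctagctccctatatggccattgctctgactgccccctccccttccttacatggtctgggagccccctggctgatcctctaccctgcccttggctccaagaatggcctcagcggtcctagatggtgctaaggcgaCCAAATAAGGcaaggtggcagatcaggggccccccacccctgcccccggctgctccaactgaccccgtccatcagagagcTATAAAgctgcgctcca
Tnni3, chr7:4522479-4522778, minus strand: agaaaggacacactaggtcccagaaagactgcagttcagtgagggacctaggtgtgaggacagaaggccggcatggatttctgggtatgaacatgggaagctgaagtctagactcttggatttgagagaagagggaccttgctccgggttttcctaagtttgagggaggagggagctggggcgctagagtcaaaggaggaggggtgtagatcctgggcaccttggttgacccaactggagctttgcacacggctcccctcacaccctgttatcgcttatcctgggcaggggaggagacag
Ryr2, chr13:12106896-12107195, minus strand: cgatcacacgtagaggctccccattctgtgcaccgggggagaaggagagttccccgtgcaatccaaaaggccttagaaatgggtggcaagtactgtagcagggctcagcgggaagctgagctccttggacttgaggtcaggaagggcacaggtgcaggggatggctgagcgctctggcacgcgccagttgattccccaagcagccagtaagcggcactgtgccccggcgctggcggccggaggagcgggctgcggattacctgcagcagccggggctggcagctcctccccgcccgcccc
Capitals mark matches to a MEF2 site or a CArG box, which are binding sites of muscle transcription factors, to the GATA letters AGATAA or to the TATA letters TATAAA, searched on both strands. CATTCC, the core of the MCAT element, was searched as well and is not marked. No 2 matches overlapped in these windows. Myh7 and Tnnt2 have 2 such windows each, and a match in either was counted. A CArG box was found in Myl7 and Actc1, which is 2 of 10 genes, while 1.63% of 32851 windows of the same length held one. The TATA letters were found in Nppa, Actc1 and Myh6 (3 of 10 genes, 13.6% of all windows) and CATTCC in 5 of 10 (14.7%). Relative to the start used, the TATA letters began at -9 in Nppa, at 33 in Actc1 and at 1 in Myh6. A MEF2 site was found in Ttn alone (3.19%) and AGATAA in Tnnt2 alone (11.2%). Tnni3, Myl4 and Ryr2 had none of these letters in the windows, and no motif was shared by all of the genes that stood out in young replicate 1.

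The clearest pattern was a single library. In young replicate 1, 9 of the 10 genes were at their highest of the 6 libraries, where the same was true of 13.1% of the genes tested. Of the 10 genes, 6 were more than 4 times the highest of the other 5 libraries, namely Nppa, Myl7, Tnni3, Actc1, Myh7 and Myh6. Over all genes with at least 10 counts in that library, 94 of 17127 (0.549%) passed the same limit, which was chosen after the values were seen. Of the genes tested for age, 21 of 16612 (0.126%) passed it, with 5 of the 10 genes among them, since Nppa was not tested. The 10 genes together took 19827 counts in young replicate 1, which is 0.0433% of the library (95% Wilson interval 0.0427% to 0.0439%, counting error only). In the other libraries they took between 2530 and 3804 counts, or 0.00792% to 0.0123%. In bulk tissue, fewer cells of a type and less RNA per cell cannot be told apart.

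**Figure D1:**
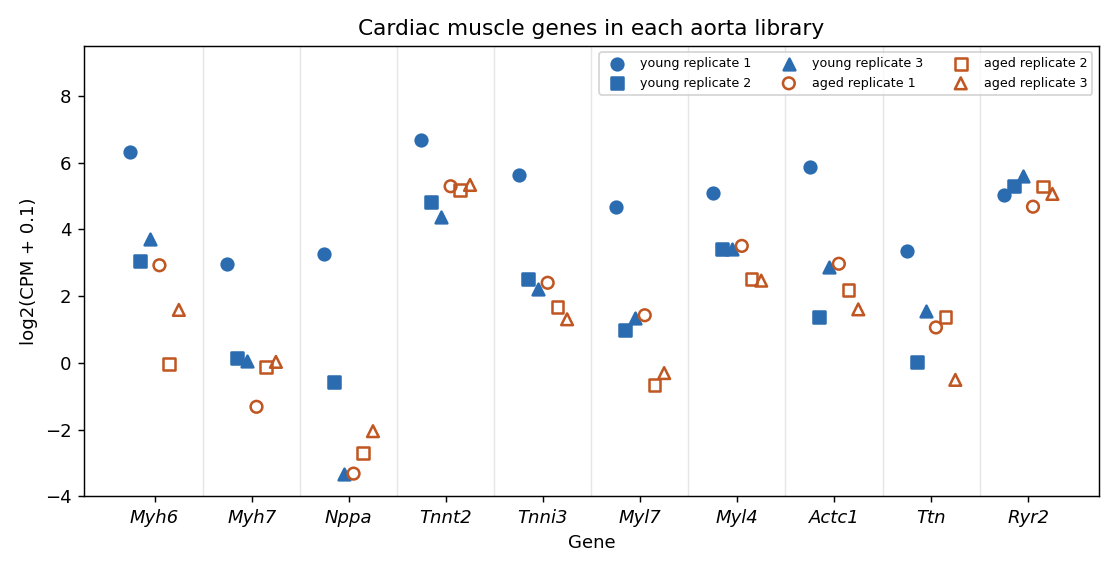
Level of each cardiac muscle gene in each library, as log2(CPM + 0.1), with filled symbols for young and open symbols for aged aorta (1 point per mouse). Young replicate 1 (filled circles) is the highest library for 9 genes, and lies among the others for Ryr2.

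Myh6 encodes the alpha myosin heavy chain, the main motor of the adult mouse heart. It was at 79.7, 8.22 and 13.1 CPM in young replicates 1, 2 and 3, and at 7.49, 0.875 and 2.90 CPM in aged replicates 1, 2 and 3. All young libraries lay above all aged ones, with aged replicate 1 just under young replicate 2. The mean was 33.7 ± 39.9 CPM in young and 3.76 ± 3.39 CPM in aged aorta (SD, n = 3 each). The log2 fold change of aged over young was -3.17, with a standard error (SE) of 1.06 (adjusted p = 0.414 by edgeR). Without young replicate 1 it was -1.50 (SE 0.79, adjusted p = 0.504 by edgeR), the largest remaining difference of the 9 genes tested in size.

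Myh7 encodes the beta myosin heavy chain, which prevails in the ventricle before birth. It was at 7.64, 1.01 and 0.932 CPM in young and at 0.301, 0.822 and 0.920 CPM in aged aorta. The groups did not overlap, but young replicate 3 and aged replicate 3 were nearly equal. The log2 fold change of -2.23 (SE 0.93, adjusted p = 0.474 by edgeR) became -0.50 without young replicate 1. Myh6 and Myh7 are neighbours on chromosome 14 of GRCm38, from 54941921 to 54966927 and from 54970684 to 54994626. Of the 50-base words in the longest coding transcript of Myh6, 22.6% also occur in Myh7, and 28.2% of those of Myh7 occur in other genes, Myh6 first among them. The antisense RNA Mhrt shares 484 exon bases with Myh7 and had at most 10 counts. Reads of the study had 50 bases and how such reads were counted is not stated, so the split between both genes is uncertain.

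Myl7, the atrial regulatory light chain, was at 25.5, 1.87 and 2.42 CPM in young and at 2.59, 0.530 and 0.708 CPM in aged aorta. Aged replicate 1 lay above young replicates 2 and 3, while aged replicates 2 and 3 lay below all others. The log2 fold change was -2.96 (SE 1.15, adjusted p = 0.448 by edgeR), and -0.74 without young replicate 1. Myl4, the atrial essential light chain, was at 33.6, 10.5 and 10.6 CPM in young and at 11.3, 5.65 and 5.41 CPM in aged aorta. Here too aged replicate 1 sat with the young libraries, and the log2 fold change of -1.30 (SE 0.54, adjusted p = 0.471 by edgeR) became -0.50. Both lie on chromosome 11, Myl7 from 5896637 to 5898782 and Myl4 from 104550663 to 104595753.

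Nppa encodes the precursor of atrial natriuretic peptide, a hormone that atrial muscle releases to lower blood volume. It had 460 counts in young replicate 1, 20 in young replicate 2 and 0 in young replicate 3, against 0, 2 and 4 counts in aged replicates 1, 2 and 3. This is 9.49 CPM in young replicate 1 and 0.575 CPM or less elsewhere, and a count of 0 allows up to 0.0874 CPM in young replicate 3 and 0.0903 CPM in aged replicate 1. It was the only one of the 10 genes that did not pass the filter on low counts, so it is absent from the comparison of ages for the other 9. In a fit with no filter its log2 fold change was -5.72 (adjusted p = 0.577 by edgeR). That fit includes young replicate 1, and Nppa was not tested in the fit without that library. Of the 50-base words of its transcript, 53.4% lie in Gm13054 as well, a gene on the opposite strand with 27, 28 and 24 counts in young and 7, 8 and 0 counts in aged aorta. Whether the counting used the strand is not stated, so the low values of Nppa are uncertain.

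Tnni3 is the inhibitory subunit of cardiac troponin, on chromosome 7 from 4518305 to 4524229. It was at 49.8, 5.66 and 4.52 CPM in young and at 5.18, 3.07 and 2.37 CPM in aged aorta. The log2 fold change was -2.50 (SE 0.94, adjusted p = 0.443 by edgeR) and -0.52 without young replicate 1, and the groups overlapped in both cases. Tnni3 shares 86 exon bases with Dnaaf3 on the same strand, which had 14 to 62 counts. Tnnt2, the subunit that ties troponin to tropomyosin, lies on chromosome 1 from 135836354 to 135852260. It was at 102 CPM in young replicate 1, and at 27.9 and 20.5 CPM in young replicates 2 and 3. The aged libraries were at 39.1, 35.9 and 40.2 CPM, between young replicate 1 and the other young libraries. The mean of Tnnt2 was 50.1 ± 44.9 CPM in young and 38.4 ± 2.23 CPM in aged aorta (SD, n = 3 each). It had a log2 fold change of -0.38 (SE 0.56, adjusted p = 0.824 by edgeR) with all libraries, and of 0.67 (SE 0.20, adjusted p = 0.397 by edgeR) without young replicate 1. It was the only gene of the 10 whose aged libraries all lay above young replicates 2 and 3.

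Actc1, the alpha actin of heart muscle on chromosome 2 from 114047282 to 114053548, was at 58.9, 2.47 and 7.23 CPM in young and at 7.73, 4.43 and 2.94 CPM in aged aorta. No 50-base word of its longest coding transcript occurs in another gene of the annotation, the abundant smooth muscle actin Acta2 included. Only exact matches were searched, and reads of Acta2 counted as Actc1 through mismatches were not tested. Acta2 had 345554 to 645255 counts, against 83 to 257 for Actc1 outside young replicate 1. Actc1 had a log2 fold change of -2.18 (SE 1.07, adjusted p = 0.528 by edgeR), and of 0.06 without young replicate 1. Ttn, the giant spring of striated muscle, was at 10.1, 0.920 and 2.83 CPM in young and at 1.99, 2.49 and 0.602 CPM in aged aorta. The log2 fold change was -1.44 with all libraries and -0.13 without young replicate 1 (adjusted p = 0.593 and 0.960 by edgeR). The groups overlapped for both genes with and without that library.

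Ryr2, the cardiac ryanodine receptor, differed from the other 9 genes in young replicate 1. It was at 32.8, 39.5 and 48.6 CPM in young and at 25.5, 38.9 and 33.3 CPM in aged aorta, so that young replicate 1 was the lowest of the young libraries. The log2 fold change was -0.31 (SE 0.22, adjusted p = 0.645 by edgeR) and -0.42 without young replicate 1. Its level varied by 1.90-fold over the 5 other libraries, the least of the 9 genes above 0 in all of them, and Myh6 varied the most. The mean was 40.3 ± 7.97 CPM in young and 32.6 ± 6.71 CPM in aged aorta (SD, n = 3 each).

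For the comparison of ages, edgeR called 0 of the 9 genes tested at an adjusted p below 0.05, where 0 of 16612 genes (0%) were called in all. At an unadjusted p below 0.05, 5 of the 9 were lower in aged aorta (Myh6, Tnni3, Myl7, Myl4 and Myh7) and 0 were higher, where 4.82% of all genes were lower and 5.56% higher. Without young replicate 2 the count of lower genes was 7 of 9. Nppa also passed the filter with 1 of certain other libraries left out, which gave 10 genes tested. Of these 10, the count was 1 without aged replicate 2, 1 without aged replicate 3, 3 without aged replicate 1 and 6 without young replicate 3. Nppa was the 1 gene without aged replicate 3, where the lowest p of the 9 was 0.0593 (Myh6, edgeR). It was also among the 6 without young replicate 3. DESeq2 with all libraries called 0 of the 9 as well, with 3 at an unadjusted p below 0.05, and gave no p for Tnni3 and Myl7. The groups did not overlap for 2 of the 9 genes, Myh6 and Myh7, where aged libraries lay below young ones for 8.78% of the genes and above them for 7.74%. The median log2 fold change was -2.18 over the 9 genes and 0.02 over all genes tested. Without young replicate 1 these medians were -0.50 and 0.05. Of the 9 genes, 0 were then lower at an unadjusted p below 0.05 (5.41% of all genes) and 1 was higher, Tnnt2 (5.9%). The aged libraries lay below both remaining young ones for 3 of the 9, Myh6, Myh7 and Ryr2 (17.4% of all genes), and above them for 1, Tnnt2 (15.6%). Without that library, aged replicates 2 and 3 still held the lowest levels of Myh6, Myl7, Myl4 and Tnni3.

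**Figure D2:**
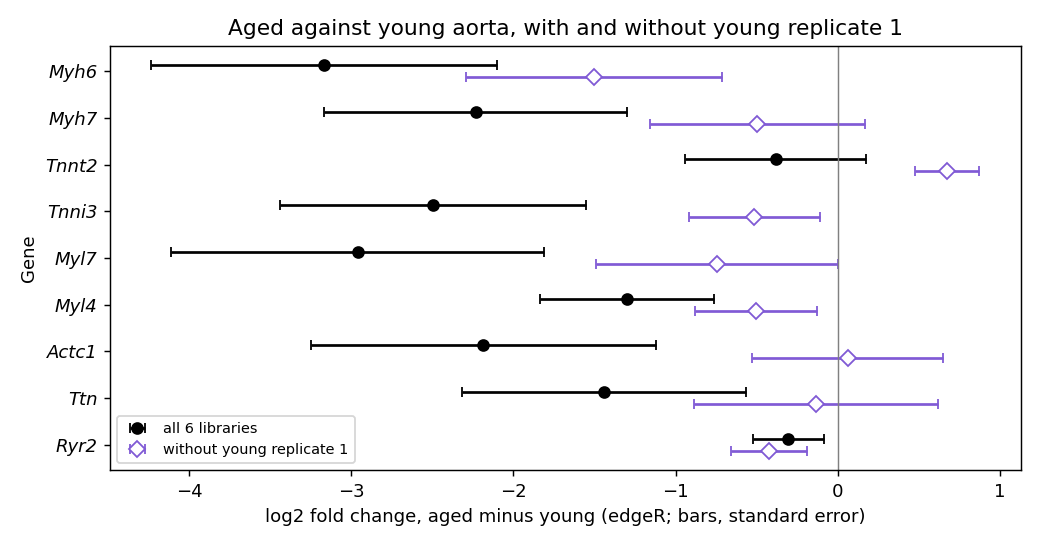
Log2 fold change of aged over young aorta for the 9 genes tested, from edgeR with all 6 libraries (black circles) and without young replicate 1 (open diamonds), with bars of 1 standard error. Without that library the values of 8 genes move towards or past 0, Tnnt2 moving from -0.38 to 0.67, and Ryr2 moves from -0.31 to -0.42.

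Levels were compared between the genes as FPKM, the count per length of the gene and per library total that the authors gave. The length implied by counts and FPKM was 8.54 kb for Tnnt2, 5.14 kb for Myl4 and 2.28 kb for Tnni3. Their longest coding transcripts have only 1200, 943 and 912 bases. For Myl7 the implied length was 0.650 kb, near its transcript of 590 bases. The order of the genes therefore depends on the lengths used, and the order by transcript length was not computed. In young replicate 1 the order was Myl7 at 41.4, Actc1 at 34.7, Tnni3 at 23.0, Tnnt2 at 12.6, Myh6 at 11.3, Nppa at 10.4, Myl4 at 6.92, Ryr2 at 1.08, Myh7 at 0.843 and Ttn at 0.0814 FPKM. In the other 5 libraries Tnnt2 was first with a median of 3.99 FPKM (2.66 to 4.33), followed by Myl7 at 3.11, Actc1 at 2.34, Tnni3 at 2.09 and Myl4 at 2.07. Ryr2 at 1.15, Myh6 at 0.944, Myh7 at 0.0805, Nppa at 0.0521 and Ttn at 0.0144 FPKM came after them. The ranges of neighbours in that order overlapped, and Myh6 over Myh7 was the only step that held in 5 of 5 libraries, with 0.109 against 0.0805 FPKM in aged replicate 2. Nppa went from rank 6 in young replicate 1 to rank 9, and Ryr2 from rank 8 to rank 6. The balance of both atrial light chains differed as well. Myl7 was 5.98 times Myl4 in FPKM in young replicate 1 and between 0.742 and 1.81 times in the others. The size of this ratio depends on the lengths used, since Myl7 had 1234 counts and Myl4 1630 in young replicate 1. Its change between libraries does not depend on them. Myh6 was 13.4 times Myh7 in young replicate 1, and between 1.36 and 35.4 times in the others, where Myh7 rests on 10 to 35 counts.

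**Figure D3:**
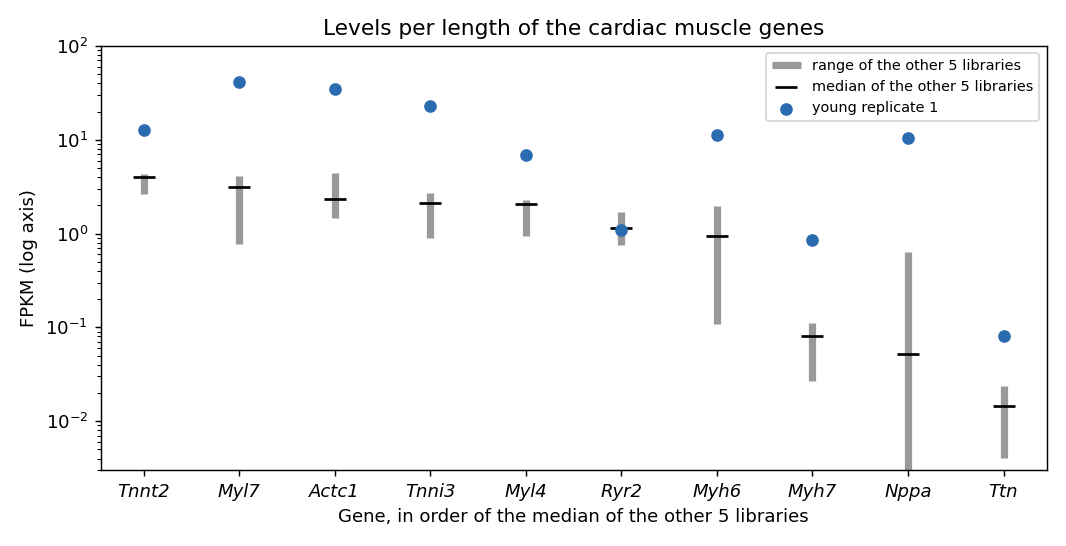
FPKM of the cardiac muscle genes on a log axis, in young replicate 1 (blue points) and in the other 5 libraries (grey range and black median), where the range of Nppa reaches 0 and is drawn to the foot of the axis. By the lengths that these FPKM use, Myl7, Actc1 and Tnni3 lead in young replicate 1 and Tnnt2 in the others.

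Other genes of heart muscle were read from 4 lists of 56 genes. They behaved unevenly in young replicate 1, where 15 of the 53 with at least 10 counts passed the limit of 4 times the highest other library, against 0.549% of all genes. Both light chains of the ventricle were among them. Myl2 was at 45.6 CPM in young replicate 1 (2208 counts), and at 0, 0, 2, 8 and 0 counts in young replicates 2 and 3 and aged replicates 1, 2 and 3. Myl3 had 1052 counts there, against 14 in aged replicate 2 and 0 in the other 4 libraries. Myl2 and Myl3 were thus nearly absent where Myl7 and Myl4 were still read in every library.

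Among other sarcomere genes, Mybpc3, the cardiac myosin binding protein, was at 14.4 CPM in young replicate 1 and at 0.602 CPM or less elsewhere. Tnnc1, the calcium sensor of cardiac troponin, had 1258 counts there against 28 to 51, and Csrp3, a protein of the Z disc, was at 8.36 CPM against 0 to 0.466 CPM. The 3 most abundant of this list were Myom1, Tpm1 and Tcap, at 62.5 CPM or more in every library. Tcap was lower in young replicate 1, at that lowest value, than in any other library (209 to 338 CPM), and Tpm1 and Myom1 were not at their highest there.

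Of the genes for calcium handling and membrane, the 3 most abundant were Atp2a2, the calcium pump, with Jph2 and Cacna1c. None of them was at its highest in young replicate 1, where Cacna1c was at 38.1 CPM. Casq2, which stores calcium, had 486 counts there and 11 to 66 elsewhere, and Sln, the small inhibitor of the pump in atria, was at 6.63 CPM against 0 to 1.38 CPM. Pln, its counterpart in ventricles and smooth muscle, was at 24.8 CPM against 2.37 to 7.45 CPM.

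In the list of secreted, energy and stress genes, Mb, the oxygen carrier myoglobin, was at 69.5 CPM in young replicate 1 and at 0.425 to 9.78 CPM elsewhere, and Cox6a2 at 9.02 CPM against 0 to 0.379 CPM. The 3 most abundant, Hspb7, Fabp3 and Mb, did not move together, since Hspb7 was lowest in young replicate 1 (329 CPM) and Fabp3 was highest in aged replicate 2 and young replicate 2 (85.6 and 81.4 CPM). These libraries also had the most Ucp1, the uncoupling protein of brown fat, at 1422 and 361 CPM. The part of brown fat in Fabp3 was not tested. Nppb, the ventricular natriuretic peptide, had 16 counts in young replicate 1 and at most 4 elsewhere, and Bmp10, an atrial growth factor, had 0 counts in all libraries.

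Of 12 transcription factors of the heart, 5 were at their highest in young replicate 1. Of the 10 with at least 10 counts there, 1, Irx4, passed the limit of 4 times the highest other library. The 3 most abundant were Hey2, Nr2f2 and Hand2, with Hey2 at 115 CPM in young replicate 1 against 43.5 to 84.5 CPM. Gata4 was at 5.08 CPM in young replicate 1 and at 0 to 2.27 CPM elsewhere, Nkx2-5 had 3 counts there and up to 11 elsewhere, and Irx4 had 13 counts there and 0 in the others.

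Between ages, edgeR called 0 of the 42 genes tested from these 4 lists. At an unadjusted p below 0.05, 10 were lower and 0 higher in aged aorta, where 4.82% of all genes were lower and 5.56% higher. Without young replicate 1 there were 5 lower and 1 higher of 41, where the shares of all genes were 5.41% and 5.9%. The 5 included Tpm1, Atp2a2, Jph2 and Hey2, each among the 3 most abundant of its list, and the higher gene was Hand2. The median log2 fold change was -0.75, and -0.06 without young replicate 1. Of the 12 genes that were the 3 most abundant of each list, 7 were further from 0 on the log2 scale without that library and 5 were nearer. The first were Myom1 (-0.41 with all libraries and -0.60 without young replicate 1), Tpm1, Atp2a2, Jph2, Cacna1c, Fabp3 and Hand2. The others were Tcap (0.38 and -0.04), Hspb7, Mb (-2.57 and 0.87), Hey2 and Nr2f2, and none of the 12 was called. Of the 10 smooth muscle markers, 4 were lower and 0 higher in aged aorta at an unadjusted p below 0.05 (edgeR). Without young replicate 1, 3 of these markers were lower and 0 higher. The part of smooth muscle in the levels of the heart lists was not tested.

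**Figure D4:**
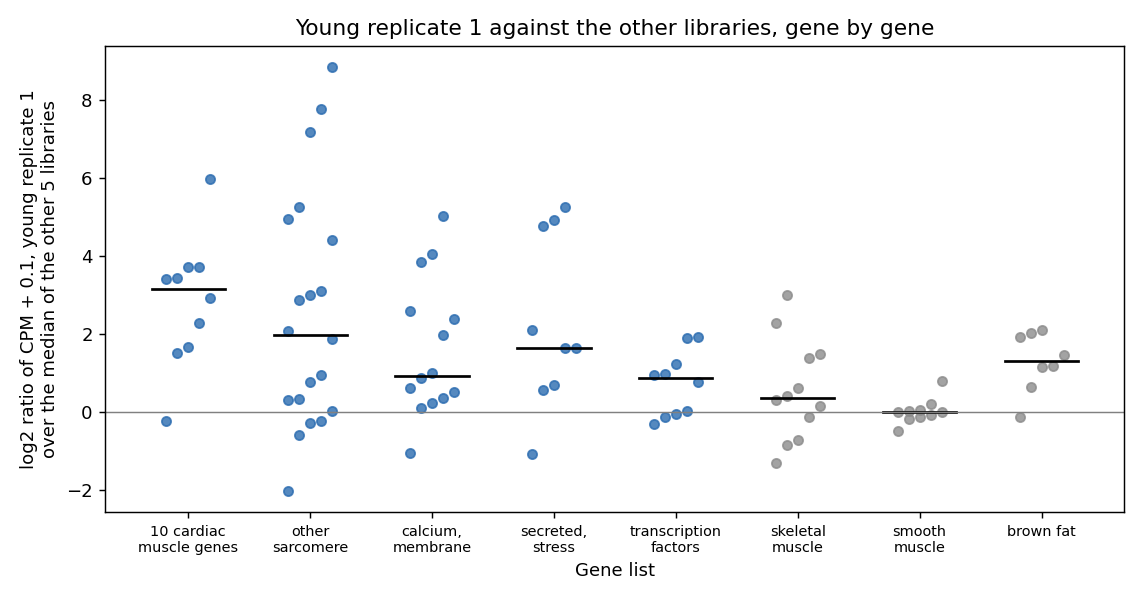
Log2 ratio of CPM + 0.1 in young replicate 1 to the median of the other 5 libraries, with 1 point per gene of at least 10 counts there and a bar at the median of each list, in blue for the 10 genes and the other heart lists and grey for skeletal muscle, smooth muscle and brown fat. Genes of heart sarcomeres reach the highest ratios, such as Myl2 at 45.6 CPM against 0.212 CPM or less, whereas smooth muscle genes lie around 0.

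Several of the 10 genes are also read in other muscle, and markers of skeletal muscle were set beside them. Their 21 genes summed to 78.8 CPM in young replicate 1 and to 85.1 to 213 CPM in the other libraries, but this order rested on Casq1, the calcium store of fast muscle, at 45.7 CPM there and 60.8 to 190 CPM elsewhere. Without Casq1 the other 20 genes summed to 33.0 CPM in young replicate 1, to 36.5 CPM in aged replicate 2 and to 20.8 to 24.8 CPM in the other 4 libraries. Mybpc2, Myl1 and Acta1 were at their highest in young replicate 1, and the part of skeletal muscle in the heart gene levels was not tested. The 3 most abundant were Casq1, Mybpc2 and Tnnt1. Of the 21, 12 had at least 10 counts in young replicate 1, and 0 of these passed the limit of 4 times the highest other library. Myod1, a defining factor of the lineage, had 0 counts in all libraries, the fast myosins Myh2 and Myh1 had at most 10 and 30 counts, and Myh4 had 114 counts in aged replicate 2 and 33 in young replicate 1. Acta1, the skeletal actin that heart also makes, was at 5.92 CPM in young replicate 1 and at 0.144 to 2.44 CPM elsewhere.

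Markers of other cell types were not at their highest in young replicate 1 with few exceptions. For endothelium, fibroblasts, macrophages, brown fat and blood, 0 genes of each list were at their highest there, against 1 of 10 for smooth muscle and 2 for white fat. The sum of 8 endothelial markers was 542 CPM in young replicate 1, 397 to 502 CPM in 4 others and 1885 CPM in aged replicate 3, with Pecam1, Vwf and Tie1 on top. The 8 fibroblast markers, led by Col1a2, Col1a1 and Dcn, summed to 3723 to 5776 CPM in young and 3355 to 9916 CPM in aged aorta. Brown fat markers, led by Ucp1, Cidea and Dio2, summed to 136 to 647 CPM in young and 183 to 1994 CPM in aged aorta, and white fat markers, led by Plin4, Cfd and Lipe, to 644 to 986 and 435 to 1494 CPM. The 9 rows of macrophage markers, of which Itgam has 2, were led by C1qa, C1qb and Csf1r and summed to 53.6 to 68.3 CPM in young and 86.2 to 238 CPM in aged aorta, and blood markers (Hbb-bs, Hba-a1 and Hba-a2 highest) to 430 to 672 and 391 to 877 CPM. Of the 2 libraries with the lowest Myh6 and Myl7, aged replicate 2 had the highest brown fat sum and the lowest endothelial sum, and aged replicate 3 had the highest endothelial sum, with brown fat markers at 183 CPM. The part of these tissues in the heart gene levels was not tested.

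Similarity of the 10 genes was described over the 6 libraries, which is a small number and is dominated by young replicate 1. The correlation (Pearson) of the log2 CPM of each tested gene with the mean of the other 8 was 0.98 for Tnni3, 0.97 for Myl7, 0.96 for Myl4 and 0.93 for Actc1. It was 0.86 for Myh6, 0.81 for Ttn, 0.79 for Myh7, 0.70 for Tnnt2 and -0.15 for Ryr2. Among all other genes tested, the highest correlations with the mean of the 9 genes were those of Lyrm2, Mon1b, 4930550C14Rik, Cavin1 and Ephb6, followed by 2500004C02Rik, Scaper, Nkd1, Tm4sf1 and Itih2, from 0.998 down to 0.976. These genes shared the order of the libraries more than the size of the difference. Lyrm2 was at 11.0 CPM in young replicate 1 and at 7.54 to 8.39 CPM elsewhere, and Tm4sf1 at 913 CPM against 275 to 396 CPM.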

How the data were processed

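RNA of 6 aortas was sequenced single-ended from libraries of an mRNA kit. The authors deposited raw counts per gene and FPKM values, 1 column per library. The submitters' processing notes name the build mm10, while aligner, counting tool, annotation and strand setting are not given in the sources used here. Coordinates are those of GENCODE M21 on GRCm38, which held 55154 of the 55335 Ensembl identifiers.

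Counts were filtered (filterByExpr by group, minimum count 10, minimum total 15), normalized by TMM and fitted with edgeR 4.0.16 quasi-likelihood models in R 4.3.3, with Benjamini-Hochberg adjustment over all genes tested and a threshold of 0.05. The general tests that the study names for 2 groups were not used, since counts need a count model. The code of the fit was checked on simulated counts with 1 dispersion for all genes and no outlying library. That check does not show the power for the 10 genes. CPM use the same factors, and log2 CPM a prior count of 2. Alternatives were RLE factors, no TMM, other filters, a replicate block, DESeq2 1.42.0, limma 3.58.1 on log2 FPKM (pseudocount 1 or 0.1), a robust fit and each library left out. Total counts were 31049632 to 45832185 per library, and the precision of the age comparison also rests on the spread between mice.

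The genes and lists were chosen with earlier results of these data known. Named are the 10 genes, the 3 most abundant genes of each list, defining markers at or near 0, the 10 most similar genes and 2 sex-linked genes. Myl2, Myl3, Nppb, Gata4, Irx4, Cox6a2, Casq2, Sln, Pln, Mybpc3, Tnnc1, Csrp3, Acta1, Myl1, Myh4 and the genes that overlap the 10 were named after their values were seen. The results of 1 other marker list are not reported here.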

Additional observations from a re-analysis of the deposited data

How the results depend on the processing

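The count of 0 genes called by edgeR in all held under the other settings except DESeq2, which called 334 genes, and with 1 library left out it ranged from 0 to 110, with 110 when aged replicate 2 was omitted. The cause of either was not tested. Of the 10 heart genes, 0 were called under any setting run. DESeq2 called 1 of the other heart genes, Casq2, and 1 skeletal muscle gene, Mybpc2, where edgeR called 0 of each, with all libraries and with each left out. The median log2 fold change of the 9 genes, -2.18, was -0.93 with limma on log2(FPKM + 1) and -1.31 on log2(FPKM + 0.1). The cause of this difference from edgeR was not tested. With 1 library left out the median lay between -2.64 and -0.50 in edgeR, the latter without young replicate 1. Over the alternatives, 132 values of single genes kept their direction and 3 reversed. Tnnt2 turned to 0.00026 with the replicate block and ranged from -0.75 to 0.67 with 1 library left out, and Actc1 ranged from -2.71 to 0.060, both upper ends being without young replicate 1. Library totals without TMM moved the median of all genes from 0.02 to -0.22 and limma to -0.12 and -0.19, and the 9 genes kept their direction there. With the replicate block edgeR called 0 genes, the median of the 9 genes was -1.18, and 4 of the 9 genes were lower at an unadjusted p below 0.05 instead of 5. That count was 2 with limma at either pseudocount, 3 with DESeq2 or the robust fit and 6 without TMM. Without a filter the count for the 9 did not change, and Nppa, then tested as well, made it 6 of 10. With 1 library left out it was 0 to 7 of the 9, with 0 without young replicate 1 or without aged replicate 3. The replicate numbers were not taken to pair the mice, since no label says that they mark a shared litter, batch or day. Deviations of libraries with the same replicate number correlated at 0.079, 0.117 and 0.096. Libraries with unlike numbers were not compared, so these values cannot show or exclude pairing. Depth limits Nppa and Myh7 most, at 0 to 35 counts outside young replicate 1.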
